A study of Danio rerio with 4 samples.

Results

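SR proteins and heterogeneous nuclear ribonucleoproteins (hnRNPs) are the main RNA-binding families that steer pre-mRNA splicing. SR proteins carry RNA recognition motifs and a tail rich in arginine and serine, bind enhancer sequences in exons and recruit the spliceosome, and their kinases of the SRPK and CLK families control their activity and their place in the nucleus. hnRNPs coat nascent transcripts, often oppose the use of the exons they bind, and also act in mRNA export, stability and translation. In mammals, many transcripts of both families hold poison exons, whose inclusion sends the mRNA to nonsense-mediated decay, so a transcript level does not by itself give the protein level.

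The genes described here are those whose symbol starts with srsf and a digit, or with hnrnp, without regard to case. They were 41 of the 31951 Ensembl identifiers in the deposited table, 17 of them SR and 24 hnRNP rows. A further matching identifier, srsf10a, had no row in the table used here and so was not analysed. The symbols SRSF1, SRSF3, SRSF6, HNRNPK, HNRNPU and HNRNPAB were each carried by 2 rows, which are told apart below by identifier. The set was taken up because SRSF9 was known to differ strongly between the genotypes in these same libraries, so the set was in part chosen by the genotype difference in FPKM, and the genotype values of all members are a description that carries no test.

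Endothelial cells were sorted from dissociated zebrafish embryos of 2 genotypes, whose stage the labels do not give. The first carried kdrl:mcherry and kdrl:cxcr1, which by its name puts the chemokine receptor gene cxcr1 under the promoter of the endothelial gene kdrl, and the second carried kdrl:mcherry alone and is called wild-type here. The mCherry transgene was thus shared by all libraries. Each of 2 independent clutches gave 1 RNA-seq library per genotype, so there were 4 libraries, 2 per group. Levels are FPKM, fragment numbers divided by transcript length and by the mapped total of a library, so that genes of different length can be compared. Fold changes are differences of log2(FPKM + 1).

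The rows of the transgene's gene did not separate the genotypes. cxcr1 (ENSDARG00000052088) was listed at 12.8 and 0 FPKM in kdrl:cxcr1 clutches 1 and 2, and at 8.14 and 0 FPKM in wild-type clutches 1 and 2. CXCR1 (ENSDARG00000054975) was listed at 0 and 8.21 FPKM in the kdrl:cxcr1 libraries, against 3.89 and 0 FPKM in the wild-type ones. These values therefore give no check of the genotype labels, and whether transgene transcripts were counted in these rows is not given in the sources used here.

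The sorted cells carried endothelial transcripts in all 4 libraries. kdrl itself read 140 and 157 FPKM in kdrl:cxcr1 clutches 1 and 2, against 128 and 274 FPKM in wild-type clutches 1 and 2. The 26 pan-endothelial rows summed to 1341 and 1724 FPKM in the kdrl:cxcr1 libraries and to 1284 and 1991 FPKM in the wild-type ones, and none was listed at 0 throughout. Markers of other cells were also present and differed between the libraries. The summed level of 14 erythroid rows was 6556 and 1488 FPKM in the kdrl:cxcr1 libraries, against 3086 and 1681 FPKM in the wild-type ones, with SLC4A1 at 0 in all 4 libraries. For 27 neutrophil and macrophage rows the sums were 1518 and 2235 FPKM in the kdrl:cxcr1 libraries and 1135 and 1292 FPKM in the wild-type ones, with ptprc and the row MPEG1 at 0 in all 4. For 19 epidermal rows they were 998 and 641 FPKM in the kdrl:cxcr1 libraries and 1095 and 1391 FPKM in the wild-type ones, with none at 0 throughout. Muscle and neuron rows summed to 587 and 445 FPKM in the kdrl:cxcr1 libraries and to 578 and 302 FPKM in the wild-type ones, with gap43 at 0 in all 4. Rows of liver, gut, pancreas and yolk summed to 92.9 and 39.3 FPKM in the kdrl:cxcr1 libraries and to 132 and 153 FPKM in the wild-type ones. Of these, ela3l, vtg2 and apoa4a were at 0 in all 4. The median log2 fold change, kdrl:cxcr1 over wild-type, was 1.02 over 12 tested erythroid rows and 0.47 over 20 neutrophil and macrophage rows. It was -1.03 over 19 epidermal rows and -1.23 over 10 rows of liver, gut, pancreas and yolk. Muscle and neuron rows stood at 0.25 and pan-endothelial rows at -0.03, beside 0.16 for all tested genes. The part of these other cells in the values below was not tested, and in a sorted bulk sample fewer cells of a type and less RNA per cell cannot be told apart. Median-of-ratios size factors were 1.1 and 1.12 in kdrl:cxcr1, against 0.96 and 0.931 in wild-type, and dividing by them took the median fold change over all tested genes to -0.03 on the log2 scale, against 0.16 as deposited.

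Both families were expressed well above the typical gene. The median member averaged 85.04 FPKM over the 17 SR rows and 59.8 FPKM over the 23 hnRNP rows that passed the filter of at least 1 FPKM in at least 2 libraries, beside 7.54 FPKM for the median of the 17723 genes that passed it. A mean of at least 100 FPKM was reached by 6 SR and 8 hnRNP rows, and by 4.28% of all tested genes. The hnRNP row left out by the filter was hnrnpa3, a gene of the A/B type, which read 0.82 and 0 FPKM in the kdrl:cxcr1 libraries and 0.121 and 0.0104 FPKM in the wild-type ones. The other 40 rows were above 0 in every library.

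Among the SR genes, SRSF3, which encodes a short SR protein with a single RNA recognition motif, had the row with the highest mean. The row ENSDARG00000059360 read 237 and 277 FPKM in the kdrl:cxcr1 libraries, against 105 and 145 FPKM in the wild-type ones. Next came srsf2a, the gene of the SR protein SC35, with 187 and 234 FPKM in the kdrl:cxcr1 libraries and 131 and 189 FPKM in the wild-type ones. srsf5a read 215 and 178 FPKM in the kdrl:cxcr1 libraries and 143 and 132 FPKM in the wild-type ones. These 3 rows changed places between libraries, and all neighbours in the order of SR levels had overlapping ranges over the 4 libraries. srsf7a, whose product has a zinc knuckle and serves as an adaptor for mRNA export, averaged 151 ± 30.7 FPKM (SD, n = 4 libraries). SRSF5 averaged 110 ± 28.4 FPKM and SRSF11 106 ± 18.5 FPKM. The 3 highest SR rows of a library held 43.6% and 41.2% of the family's summed FPKM in the kdrl:cxcr1 libraries, and 37.8% and 42.7% in wild-type.

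Among the hnRNP genes, hnrnpa0l and the HNRNPAB row ENSDARG00000007960 led in each of the 4 libraries. hnrnpa0l, a relative of the A/B type protein hnRNP A0, read 476 and 579 FPKM in the kdrl:cxcr1 libraries, against 263 and 375 FPKM in the wild-type ones. The HNRNPAB row ENSDARG00000007960 read 427 and 431 FPKM in the kdrl:cxcr1 libraries and 257 and 323 FPKM in the wild-type ones. The other HNRNPAB row, ENSDARG00000099865, averaged 223 ± 43.5 FPKM (SD, n = 4 libraries). HNRNPL, whose product binds CA repeats, averaged 176 ± 32.3 FPKM, and HNRNPDL 109 ± 37.4 FPKM. At the low end hnrnph3 averaged 1.78 ± 1.18 FPKM, hnrnph1 2.71 ± 2.45 FPKM and HNRNPD 4.34 ± 2.52 FPKM. HNRNPD and HNRNPDL, which encode related AU-rich element binding proteins and are next to each other in RefSeq's GRCz12tu assembly, therefore lay far apart in level. The ranges of all neighbours in the hnRNP order overlapped as well.

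**Figure D1:**
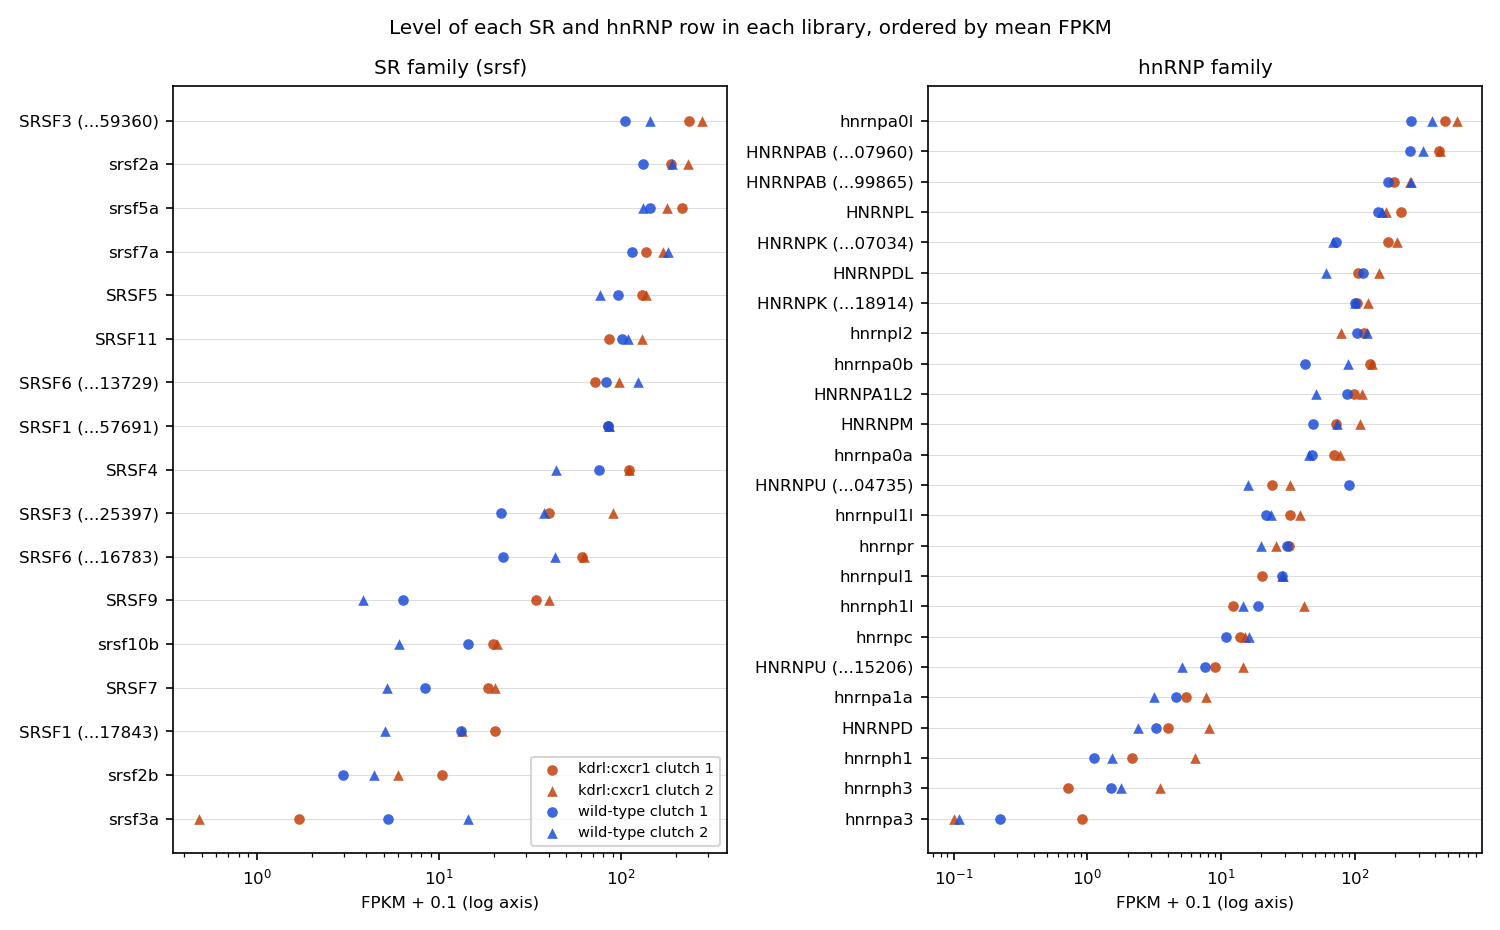
FPKM + 0.1 on a log axis for the 17 SR rows (left) and the 24 hnRNP rows (right), ordered by mean, with kdrl:cxcr1 in orange, wild-type in blue, circles for clutch 1 and triangles for clutch 2. Rows that share a symbol show the last 5 digits of their identifier. SRSF9 and srsf3a show the widest gaps between the colours, in opposite directions, while the 4 points of SRSF1 ENSDARG00000057691 form a single point.

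As families, the tested SR and hnRNP rows had no fixed order of their median levels over the 4 libraries. The median SR row read 72.1 and 90.6 FPKM in kdrl:cxcr1 clutches 1 and 2, and 75.7 and 43.9 FPKM in the wild-type ones. The median of the 23 tested hnRNP rows read 69.4 and 77.0 FPKM in the kdrl:cxcr1 libraries, and 47.7 and 45.1 FPKM in the wild-type ones. The log2 ratio of the SR median to the hnRNP median was 0.23 ± 0.31 (SD, n = 4 libraries), positive in 3 of them, with an exact two-sided sign-flip permutation p of 0.25, where 4 libraries cannot give less than 0.13. The permutation takes the 4 libraries as independent, although libraries of the same clutch form pairs. The ratio of the medians did not exceed its own spread. With hnrnpa3 included it was 0.53, exceeded its spread and was positive in all 4 libraries, so the lack of a fixed order hung on leaving out that row. With rows of at least 5 FPKM in at least 2 libraries the ratio was -0.08.

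SRSF9, the gene named when the set was chosen, was the row with the largest positive genotype log2 fold change. Its product is a close relative of SRSF1 with a short arginine-serine tail. SRSF9 read 34.02 and 40.0 FPKM in kdrl:cxcr1 clutches 1 and 2, against 6.22 and 3.72 FPKM in wild-type clutches 1 and 2. Both kdrl:cxcr1 libraries lay above both wild-type libraries, by 5.46-fold within clutch 1 and 10.8-fold within clutch 2. The log2 fold change was 2.70 (SE 0.45), and it was 2.39 to 3.01 with 1 library left out. Of the 17723 genes tested, 96 had a log2 fold change at least as high. In RefSeq's GRCz12tu assembly the gene overlaps another protein-coding locus, and since the strand setting of the counting is not given, reads of the 2 cannot be told apart. Its neighbour triap1 did not share the pattern, with 2.14 and 0 FPKM in the kdrl:cxcr1 libraries and 2.64 and 4.74 FPKM in the wild-type ones.

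The opposite extreme was srsf3a, at 1.62 and 0.38 FPKM in the kdrl:cxcr1 libraries and 5.15 and 14.4 FPKM in the wild-type ones. It was the 1 member in which both kdrl:cxcr1 libraries lay below both wild-type libraries. Its log2 fold change was -2.36 (SE 0.75), from -3.02 to -1.70 with 1 library left out, and -3.27 and -1.23 at pseudocounts of 0.1 and 5. Of all tested genes, 166 had a value at least as low. The same assembly shows srsf3a overlapping rab44 and fkbp5. FKBP5 read 23.7 and 17.4 FPKM in the kdrl:cxcr1 libraries and 27.2 and 20.2 FPKM in the wild-type ones, and rab44 read 9.36 and 12.4 FPKM in the kdrl:cxcr1 libraries and 7.85 and 11.1 FPKM in the wild-type ones. In both of these genes the genotype groups overlapped.

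The SRSF3 rows behaved otherwise than srsf3a. SRSF3 ENSDARG00000059360, with the values given above, had a log2 fold change of 1.05 (SE 0.33). SRSF3 ENSDARG00000025397 read 40.3 and 90.6 FPKM in the kdrl:cxcr1 libraries and 21.9 and 37.8 FPKM in the wild-type ones, a log2 fold change of 1.04 (SE 0.52). In both rows the kdrl:cxcr1 libraries lay above the wild-type libraries, though for ENSDARG00000025397 the gap between the nearest libraries was small and the groups overlapped after median-of-ratios scaling. How alike these 3 rows are in sequence was not checked. If they are close, reads could be split among them in a way the table does not record.

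Further SR rows were higher in both kdrl:cxcr1 libraries by smaller amounts. SRSF7 read 18.6 and 20.3 FPKM in the kdrl:cxcr1 libraries, against 8.33 and 5.11 FPKM in the wild-type ones, a log2 fold change of 1.44 (SE 0.46). SRSF4, which encodes a long SR protein with an extended arginine-serine tail, read 110 in each kdrl:cxcr1 library and 75.7 and 43.9 FPKM in the wild-type ones (0.92, SE 0.38). For SRSF4 the replicates thus differed more within wild-type than within kdrl:cxcr1. SRSF6 ENSDARG00000016783 read 60.6 and 62.7 FPKM in the kdrl:cxcr1 libraries and 22.5 and 43.3 FPKM in the wild-type ones (0.96, SE 0.42). SRSF5 read 131 and 136 FPKM in the kdrl:cxcr1 libraries and 96.0 and 76.9 FPKM in the wild-type ones (0.63, SE 0.31). srsf10b, whose human counterpart acts as a splicing repressor when dephosphorylated, read 19.7 and 20.7 FPKM in the kdrl:cxcr1 libraries and 14.3 and 5.96 FPKM in the wild-type ones (1.04, SE 0.52). srsf2b, srsf5a and SRSF1 ENSDARG00000017843 made up the rest of the 11 SR rows without overlap in this direction, with log2 fold changes of 0.96, 0.50 and 0.93. For SRSF1 ENSDARG00000017843 the nearest libraries were close, kdrl:cxcr1 clutch 2 at 13.3 FPKM and wild-type clutch 1 at 13.1 FPKM, and the groups overlapped after median-of-ratios scaling.

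In the remaining SR rows the genotype groups overlapped. SRSF1 ENSDARG00000057691, the gene of the founding SR protein SF2/ASF, read 84.6 and 85.8 FPKM in the kdrl:cxcr1 libraries and 84.9 and 85.5 FPKM in the wild-type ones. Its highest value was 1.01 times its lowest, and no other of the 14887 tested genes above 0 in all 4 libraries had so small a ratio. That comparison was made after its values were seen, and median-of-ratios scaling placed both kdrl:cxcr1 values below both wild-type values (log2 fold change -0.23). SRSF11 (log2 fold change 0.00), srsf7a (0.08), srsf2a (0.40) and SRSF6 ENSDARG00000013729 (-0.26) were the others. Within clutches srsf2a was higher in kdrl:cxcr1 in both, with log2 ratios of 0.51 and 0.30, and SRSF6 ENSDARG00000013729 was lower in both, with -0.18 and -0.34. The median ratio of highest to lowest library was 2.64 over the SR rows and 2.202 over the hnRNP rows, beside 2.73 over those 14887 genes.

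Among the tested hnRNP rows the largest genotype log2 fold change was that of HNRNPK ENSDARG00000007034. Its product binds C-rich RNA and DNA through KH domains. The row read 177 and 208 FPKM in the kdrl:cxcr1 libraries, against 71.8 and 68.1 FPKM in the wild-type ones. The group means were 193 ± 22.0 FPKM in the kdrl:cxcr1 libraries and 69.9 ± 2.63 FPKM in the wild-type ones (SD, n = 2 each). The log2 fold change was 1.45 (SE 0.30), between 1.33 and 1.56 with 1 library left out. The second HNRNPK row, ENSDARG00000018914, read 105 and 124 FPKM in the kdrl:cxcr1 libraries and 99.7 FPKM in each wild-type library. Its log2 fold change of 0.19 (SE 0.31) was -0.04 after median-of-ratios scaling.

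The hnRNP A0 genes were all higher in both kdrl:cxcr1 libraries. hnrnpa0b read 129 and 134 FPKM in the kdrl:cxcr1 libraries and 42.1 and 89.3 FPKM in the wild-type ones, a log2 fold change of 1.09 (SE 0.44). hnrnpa0a read 69.4 and 77.0 FPKM in the kdrl:cxcr1 libraries and 47.7 and 45.1 FPKM in the wild-type ones (0.64, SE 0.31). hnrnpa0l, given above, had a log2 fold change of 0.74 (SE 0.35). All 3 stayed without overlap after median-of-ratios scaling. hnrnpa0b and hnrnpa0l overlap in GRCz12tu, so reads of the pair may have been split or shared.

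Other hnRNP rows without overlap were mostly modest. The HNRNPAB row ENSDARG00000007960 had a log2 fold change of 0.57 (SE 0.32), HNRNPA1L2 0.64 (SE 0.38), hnrnpul1l 0.65 (SE 0.35) and HNRNPL 0.33 (SE 0.32). HNRNPM, whose groups overlapped, was higher in kdrl:cxcr1 within both clutches, with log2 ratios of 0.56 and 0.58. After median-of-ratios scaling HNRNPA1L2, HNRNPL and HNRNPK ENSDARG00000018914 had overlapping groups. HNRNPU ENSDARG00000015206, hnrnpa1a, HNRNPD and hnrnph1 stood at 0.79, 0.66, 0.84 and 1.1, each with a mean under 10 FPKM and an SE of 0.52 to 0.73. No hnRNP row was lower in both kdrl:cxcr1 libraries than in both wild-type libraries as deposited, but hnrnpul1 and hnrnpl2 were after median-of-ratios scaling. hnrnpl2 read 117 and 78.8 FPKM in the kdrl:cxcr1 libraries and 103 and 122 FPKM in the wild-type ones.

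HNRNPU ENSDARG00000004735 was set apart by a single library. HNRNPU encodes a nuclear scaffold protein that binds chromatin and RNA. The row read 23.8 and 32.8 FPKM in the kdrl:cxcr1 libraries, against 91.0 and 15.9 FPKM in wild-type clutches 1 and 2. The single high value was wild-type clutch 1, so the log2 fold change of -0.45 (SE 0.81) was 0.77 without that library and -1.67 without wild-type clutch 2. hnrnph1l was uneven in the other group, with 12.1 and 42.0 FPKM in the kdrl:cxcr1 libraries and 18.7 and 14.4 FPKM in the wild-type ones.

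Counted over the families, 35 of the 40 tested members had a log2 fold change above 0, beside 58.8% of all tested genes. After median-of-ratios scaling this was 27 of 40, beside 48.5% of all genes. The kdrl:cxcr1 libraries were above the wild-type libraries without overlap in 24 members, 11 SR and 13 hnRNP, against a background of 26% of all genes, and below without overlap in 1 member, against 13.6%. After median-of-ratios scaling the counts were 19 members above, against 18.3%, and 4 below, against 20%. The median log2 fold change was 0.92 for the SR family and 0.57 for the hnRNP family, beside 0.16 for all tested genes. After median-of-ratios scaling the medians were 0.69 for SR and 0.34 for hnRNP, beside -0.03. Within clutch 1 the medians were 0.54 for SR and 0.22 for hnRNP, beside 0.14 for all genes, and within clutch 2 they were 0.52 for SR and 0.72 for hnRNP, beside 0.15. Leaving out wild-type clutch 2 took the SR median to 0.47. In limma's moderated test over all genes 0 members passed at an adjusted p of 0.05, where 0.0113% of all genes did. At an unadjusted p under 0.05 there were 6 members, beside 6.8% of all genes. That count was 10 with the clutch as a block, a setting in which the share of all genes was not counted. The set was taken up because of this very contrast, so nothing is read from these counts.

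**Figure D2:**
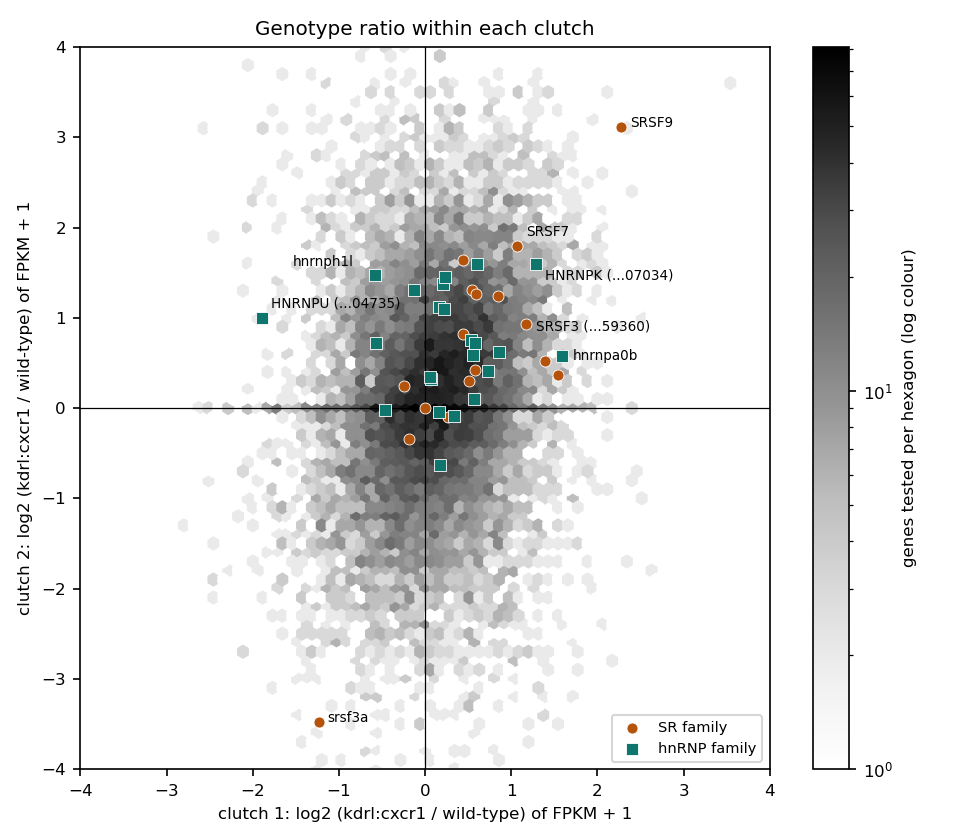
Log2 ratio of FPKM + 1, kdrl:cxcr1 over wild-type, in clutch 1 (x axis) and clutch 2 (y axis), for SR rows (orange circles), hnRNP rows (green squares) and all tested genes (grey hexagons, darker where there are more). The axes end at -4 and 4. SRSF9 lies at the upper right with 2.28 and 3.12, srsf3a at the lower left with -1.23 and -3.48, and HNRNPU ENSDARG00000004735 at the upper left with -1.89 and 0.998.

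The summed level of each family showed the same order of libraries. The SR rows summed to 1464 and 1672 FPKM in the kdrl:cxcr1 libraries of clutches 1 and 2, and to 1028 and 1208 FPKM in the wild-type ones. The tested hnRNP rows summed to 2352 and 2658 FPKM in the kdrl:cxcr1 libraries, and to 1681 and 1864 FPKM in the wild-type ones. Divided by the median-of-ratios size factors, the SR sums were 1329 and 1497 in kdrl:cxcr1 and 1071 and 1297 in wild-type, and the hnRNP sums 2134 and 2380 in kdrl:cxcr1 and 1752 and 2003 in wild-type. In both families and on both scales each kdrl:cxcr1 library lay above both wild-type libraries, with the SR sums of kdrl:cxcr1 clutch 1 and wild-type clutch 2 close together after scaling. These sums restate the genotype values behind the choice of the set, and no sums of other genes were set beside them. Nothing is read from their order.

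Zebrafish carry duplicate copies of many splicing factor genes, and here the level ratio of related rows was compared within each library. The 12 pairs were 6 that differ only in an a or b ending, or in the lack of one, and 6 of rows that share a symbol, the last added after the table was seen. In 10 of the 12 the same row was higher in all 4 libraries. How often unrelated rows keep their order was not counted, so nothing is read from this number. Pairs among srsf3a and both SRSF3 rows also share rows, so the pairs are not all separate. srsf2a averaged 31.7 times srsf2b (185 against 5.84 FPKM), with a mean log2 ratio of 4.85 ± 0.53 (SD, n = 4 libraries). srsf7a averaged 11.5 times SRSF7 (log2 ratio 3.59 ± 0.94). SRSF1 ENSDARG00000017843 was the minor row beside SRSF1 ENSDARG00000057691 (-2.77 ± 0.78), and HNRNPU ENSDARG00000004735 was the major row beside ENSDARG00000015206 (1.85 ± 1.07). srsf5a over SRSF5 had the narrowest spread, at 0.61 ± 0.18. Each of the 10 pairs had an exact two-sided sign-flip permutation p of 0.13, the smallest that 4 libraries allow. After Benjamini-Hochberg adjustment over the 12 pairs this p was 0.15, so none could pass a threshold of 0.05. The permutation takes the 4 libraries as independent, although libraries of the same clutch form pairs.

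In the HNRNPK pair the order turned with genotype. The log2 ratio of ENSDARG00000007034 over ENSDARG00000018914 was 0.76 and 0.74 in kdrl:cxcr1 clutches 1 and 2, against -0.47 and -0.54 in wild-type. The groups were separate by more than 1 log2 unit, and the difference was 1.23 within clutch 1 and 1.28 within clutch 2. This ratio is taken within a library, so scaling between libraries leaves it nearly as it is. The remaining pair without a fixed order was hnrnpa0a over hnrnpa0b, at -0.88 and -0.79 in kdrl:cxcr1 and 0.18 and -0.97 in wild-type.

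Other pairs also differed in ratio between the genotypes. srsf3a over SRSF3 ENSDARG00000059360 was -6.51 and -7.66 in kdrl:cxcr1, against -4.11 and -3.24 in wild-type. srsf7a over SRSF7 was 2.82 and 2.999 in kdrl:cxcr1 and 3.63 and 4.90 in wild-type. SRSF6 ENSDARG00000013729 over SRSF6 ENSDARG00000016783 was 0.25 and 0.63 in kdrl:cxcr1 and 1.82 and 1.501 in wild-type. In the pairs of SRSF1, SRSF6, SRSF7, HNRNPU, and srsf2a with srsf2b, the row with the lower level was higher in kdrl:cxcr1. The major row of these pairs had overlapping groups as deposited. For SRSF1 ENSDARG00000017843 that order of the groups did not hold after median-of-ratios scaling. The HNRNPAB pair ran the other way, with the major row ENSDARG00000007960 higher in kdrl:cxcr1 and overlapping groups in ENSDARG00000099865. In the SRSF3, HNRNPK, srsf5a with SRSF5, and hnrnpa0a with hnrnpa0b pairs, both rows were higher in both kdrl:cxcr1 libraries as deposited. For srsf3a the minor row was the lower one in kdrl:cxcr1. These genotype differences come from the contrast behind the choice of the set and are given with no test.

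**Figure D3:**
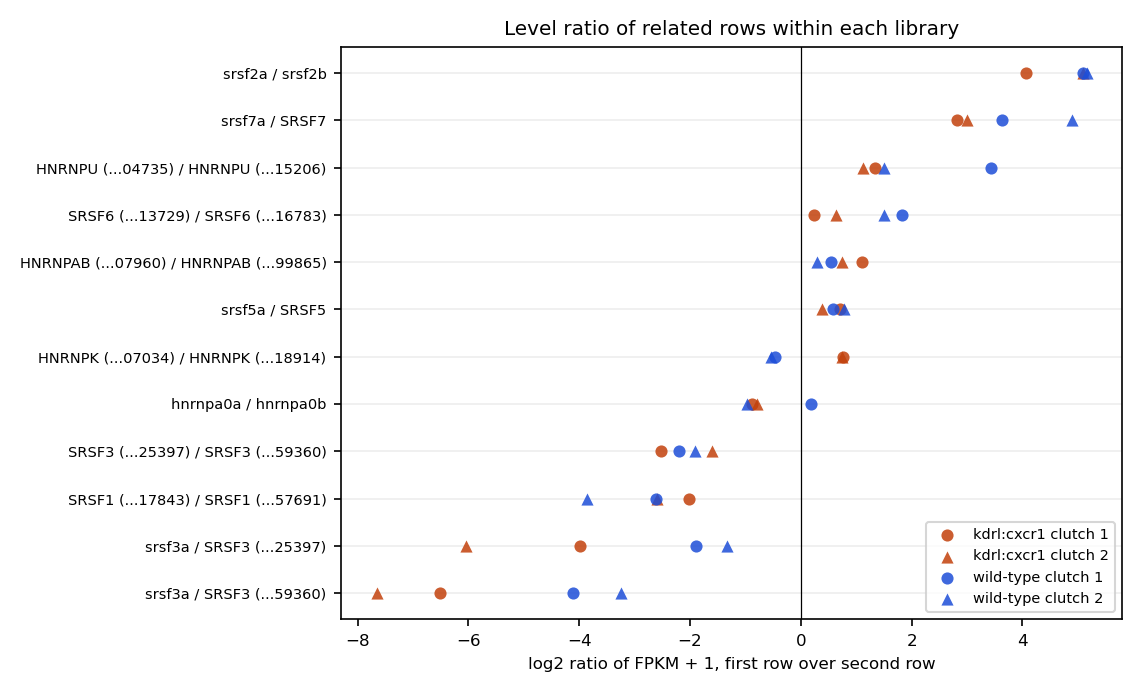
Log2 ratio of FPKM + 1 of the first over the second row of each of 12 pairs, 1 point per library, with kdrl:cxcr1 in orange, wild-type in blue, circles for clutch 1 and triangles for clutch 2. The HNRNPK pair is the 1 in which orange points (0.76 and 0.74) and blue points (-0.47 and -0.54) stand on opposite sides of 0.

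The comparison by clutch asked whether the members differed between the 2 clutches. The set was not chosen on it, but the genotype difference stays in its residual spread, so members with a large genotype difference have wide errors here. The clutches also stood apart as libraries. The row rn7sl1 took 37.5% and 39.8% of the summed FPKM in the kdrl:cxcr1 and wild-type libraries of clutch 1, and 30.1% and 24.0% in those of clutch 2. The share of rows listed at 0 was 31.9% in each library of clutch 1, and 43.5% and 42.0% in the kdrl:cxcr1 and wild-type libraries of clutch 2. The part of these differences in the clutch values was not tested. At an adjusted p of 0.05 in limma's test over all genes, 0 of the 40 tested members passed, where 0.0169% of all genes did. At an unadjusted p under 0.05 there were likewise 0 members, beside 9.2% of all genes. With genotype as a block there was 1 member, and the share of all genes was not counted in that setting. A log2 fold change of clutch 1 over clutch 2 above 0 was found in 15 of the 40 members, 8 SR and 7 hnRNP, beside 53.7% of all tested genes. The median of these fold changes was -0.02 for SR and -0.17 for hnRNP rows, beside 0.06 for all tested genes. Clutch 1 was below clutch 2 without overlap in 10 members, against 15.5% of all genes, and above it without overlap in 1, against 20.4%. The 1 was hnrnpr, with 32.1 and 30.8 FPKM in the kdrl:cxcr1 and wild-type libraries of clutch 1, and 25.7 and 19.9 FPKM in those of clutch 2.

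The 6 members with the smallest p-values by clutch were the following. SRSF3 ENSDARG00000025397 averaged 31.1 ± 13.0 FPKM in clutch 1 and 64.2 ± 37.3 FPKM in clutch 2 (SD, n = 2 each), a log2 fold change of -0.95 (SE 0.57, limma adjusted p = 0.774). The HNRNPAB row ENSDARG00000099865 came next, at 187 ± 14.9 FPKM in clutch 1 and 260.3 ± 5.58 FPKM in clutch 2 (-0.48, SE 0.30, limma adjusted p = 0.784). SRSF6 ENSDARG00000013729 averaged 77.1 ± 7.04 FPKM in clutch 1 and 111 ± 18.7 FPKM in clutch 2 (-0.51, SE 0.32, limma adjusted p = 0.789). srsf7a averaged 126 ± 16.2 FPKM in clutch 1 and 176 ± 8.85 FPKM in clutch 2 (-0.48, SE 0.30, limma adjusted p = 0.793). For HNRNPAB ENSDARG00000099865, SRSF6 ENSDARG00000013729 and srsf7a the clutches did not overlap, while for SRSF3 ENSDARG00000025397 they did. SRSF1 ENSDARG00000017843 (0.91) and HNRNPM (-0.58) followed. SRSF9 averaged 20.1 ± 19.7 FPKM in clutch 1 and 21.8 ± 25.6 FPKM in clutch 2 (0.19, SE 1.28, limma adjusted p = 0.995), where each clutch holds 1 library of each genotype.

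The wider splicing machinery was read from the genotype fit through lists of genes by role. Of 189 tested rows on 7 lists, 0 passed limma's test at an adjusted p of 0.05 in either direction. The 9 SR protein kinase rows had a median log2 fold change of 0.20 and 7 values above 0, which became -0.01 and 4 after median-of-ratios scaling. SRPK3, the kinase gene with the smallest p, read 5.71 and 5.88 FPKM in the kdrl:cxcr1 libraries and 4.72 and 2.03 FPKM in the wild-type ones (limma adjusted p = 0.795). The CLK2 row ENSDARG00000059870 read 3.002 and 2.27 FPKM in the kdrl:cxcr1 libraries and 3.40 and 4.16 FPKM in the wild-type ones (limma adjusted p = 0.896). A second CLK2 row, ENSDARG00000062954, stood at a log2 fold change of -0.08. The median of the kinase rows thus lay near the median of all genes, which was 0.16 as deposited and -0.03 after scaling. Single kinase rows ran from -0.40 (CLK2 ENSDARG00000059870) to 0.71 (SRPK3).

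The list of SR-related factors and that of nuclear import receptors had higher medians. The 21 SR-related rows stood at 0.70, with 18 above 0, and at 0.48, with 16 above 0, after median-of-ratios scaling. srrm1, whose product is a coactivator that bridges SR proteins to the spliceosome, read 102 and 107 FPKM in the kdrl:cxcr1 libraries, against 57.7 and 54.1 FPKM in the wild-type ones (log2 fold change 0.89, SE 0.30, limma adjusted p = 0.699). acin1a, a gene of an exon junction associated factor, read 64.2 and 119 FPKM in the kdrl:cxcr1 libraries and 31.7 and 29.7 FPKM in the wild-type ones (1.48, SE 0.41, limma adjusted p = 0.699). The SCAF4 row ENSDARG00000018854 ran the other way, with 24.6 and 18.5 FPKM in the kdrl:cxcr1 libraries and 32.1 and 60.1 FPKM in the wild-type ones. A second SCAF4 row, ENSDARG00000077093, stood at a log2 fold change of 0.71. The 5 nuclear import rows had a median of 0.89 with 5 above 0, and 0.66 with 4 above 0 after scaling. TNPO3, the gene of the transportin that imports SR proteins, was the lowest of the 5 at 0.05, below the median of all genes, and the higher values were those of TNPO1, tnpo2a, IPO5 and TNPO2. TNPO1, the gene of the import receptor of hnRNP A1, read 13.8 and 23.8 FPKM in the kdrl:cxcr1 libraries and 6.83 and 6.30 FPKM in the wild-type ones (1.34, SE 0.48, limma adjusted p = 0.699).

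Core spliceosome genes lay between these. The 30 rows of U1, U2 and Sm proteins had a median of 0.46 (0.23 after median-of-ratios scaling), with 23 above 0 (19 after scaling). The 35 rows of the tri-snRNP and catalytic proteins had a median of 0.39 (0.21 after scaling), with 31 above 0 (27 after scaling). Of all tested genes, 58.8% were above 0 as deposited and 48.5% after scaling. SF3B1, the branch point binding subunit gene of U2, read 91.5 and 50.5 FPKM in the kdrl:cxcr1 libraries and 25.9 and 25.3 FPKM in the wild-type ones (1.38, SE 0.41, limma adjusted p = 0.699). CTNNBL1 read 12.9 and 20.9 FPKM in the kdrl:cxcr1 libraries and 5.61 and 4.43 FPKM in the wild-type ones (1.54, SE 0.50, limma adjusted p = 0.699). In both genes the 2 kdrl:cxcr1 libraries lay above the wild-type libraries, with the wider spread in kdrl:cxcr1. The 76 rows of other splicing regulators had a median of 0.25 (0.04 after scaling), close to that of all genes, with 50 above 0 (40 after scaling). Among them cirbpa, a cold-inducible RNA-binding protein gene, averaged 186 ± 8.81 FPKM in the kdrl:cxcr1 libraries and 93.5 ± 9.64 FPKM in the wild-type ones (SD, n = 2 each), with a limma adjusted p of 0.699. NOVA1 is known in mammals as a neuronal splicing factor. Its row ENSDARG00000017673 averaged 75.2 ± 20.3 FPKM in the kdrl:cxcr1 libraries and 168 ± 30.7 FPKM in the wild-type ones, with the same adjusted p. A second row, nova1 ENSDARG00000020178, went the other way, with a log2 fold change of 0.23. The 13 nonsense-mediated decay rows had a median of 0.35 (0.15 after scaling), with 12 above 0 (8 after scaling). They were led by the helicase gene UPF1, with 41.4 and 56.0 FPKM in the kdrl:cxcr1 libraries and 20.9 and 20.7 FPKM in the wild-type ones (1.17, SE 0.36, limma adjusted p = 0.699).

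**Figure D4:**
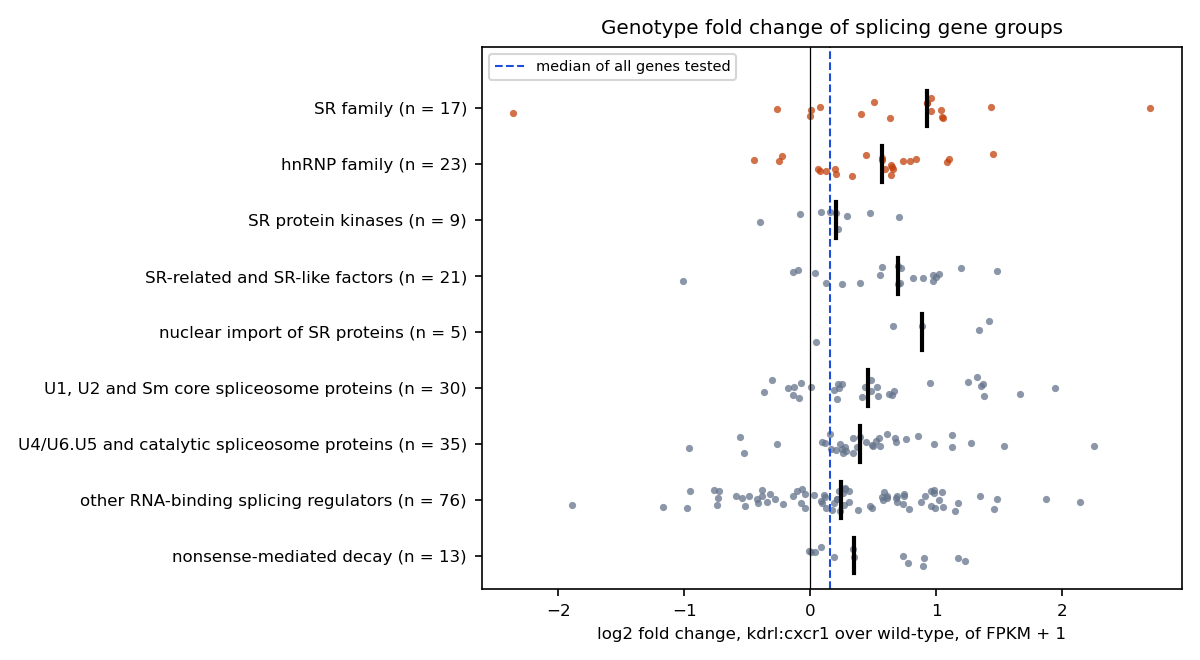
Log2 fold change of FPKM + 1, kdrl:cxcr1 over wild-type, of each tested row of the SR and hnRNP families (orange) and of 7 lists of related genes (grey), with a black bar at each median and a dashed blue line at the median of all tested genes (0.16). Points are spread vertically at random. The SR median (0.92) and the nuclear import median (0.89) lie farthest to the right, and the kinase median (0.20) lies near the dashed line.

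Some members lie side by side in the genome, in RefSeq's GRCz12tu assembly. Of 26 members with a unique symbol match there, 6 were next to another member and 10 overlapped another gene. HNRNPL and srsf7a, 1 from each family, are neighbours. HNRNPL read 222 and 171 FPKM in the kdrl:cxcr1 libraries and 149 and 160 FPKM in the wild-type ones, where the wild-type libraries were lower. srsf7a read 137 and 169 FPKM in the kdrl:cxcr1 libraries and 114 and 182 FPKM in the wild-type ones, where the groups overlapped. The members with overlaps included hnrnpc (with mbl2, dcaf8 and c1ql4l), hnrnph1 (with rufy1), hnrnpl2 (with brwd1) and hnrnpul1l (with lrwd1), and their values are uncertain to that extent.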

How the data were processed

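Libraries were built from sorted endothelial cells with the SMARTer kit for low RNA input (labels' protocols). FPKM values for each of the 4 libraries stand in the table that the authors deposited. cutadapt, TopHat2 2.0.11, Cufflinks 2.2.1 and build GRCz10 are named in the submitters' processing notes, and the sources used here name no annotation, strand setting or filter. Without counts the depth is unknown. An FPKM of 0 can be a failed estimate. Of the 31951 identifiers, 26120 had a symbol in the table of names used, and neighbouring genes from RefSeq's GRCz12tu.

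The log2(FPKM + 1) values were fitted by limma 3.58.1 under R 4.3.3 (moderated test with an intensity trend, two-sided, Benjamini-Hochberg over all genes tested, threshold 0.05). A gene was tested if 2 or more libraries reached an FPKM of 1, which left 17723. The 4 libraries were fitted by genotype (2 against 2) and, separately, by clutch (2 against 2). Residual degrees of freedom were 2, raised to 5.69 by genotype and 5.09 by clutch with the spread of other genes. An exact permutation of 2 against 2 cannot give a two-sided p below 0.333. A log2(FPKM + 1) fold change understates that of low genes. The spread within a genotype is that between independent clutches.

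By their labels same-numbered samples came from a shared clutch and so form pairs. The errors and p-values given are from the fits without the pairing, and a fit with the block is an alternative. The correlation of their deviations from the group mean was 0.116. Alternatives were pseudocounts of 0.1 and 5, no filter, at least 5 FPKM, quantile normalization, median-of-ratios scaling, robust moderation, no trend, a clutch block and leaving out each library. The members, lists and tests were chosen with earlier results of these data known. Genes were named by their order of p, their level, lack of overlap or a paralog pair, and the remaining members after their values were seen. Pairs of rows that share a symbol, and counts of members above 0 or without overlap under other settings, were added after seeing the table.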

Additional observations from a re-analysis of the deposited data

Results flagged for a closer look

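In 10 members the genotype log2 ratio had opposite signs in the 2 clutches, each of which holds 1 library per genotype. The difference was not tested, and the values given are the ratio in clutch 1 minus that in clutch 2. It was largest for HNRNPU ENSDARG00000004735 (-2.89), hnrnph1l (-2.06), HNRNPDL (-1.43) and hnrnph3 (-1.28). It was smaller for hnrnpl2 (0.81), SRSF11 (-0.49), hnrnpc (0.42), srsf7a (0.36) and the HNRNPAB row ENSDARG00000099865 (0.21). For SRSF1 ENSDARG00000057691 the difference was -0.0076, on ratios that were both close to 0. The share of all tested genes with opposite signs was not counted, so nothing is read from the number of members.

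In 3 pairs of related rows the genotype change of their ratio had opposite signs in the 2 clutches, again untested. The difference of clutch 1 minus clutch 2 was -1.24 for hnrnpa0a over hnrnpa0b, -0.62 for SRSF3 ENSDARG00000025397 over ENSDARG00000059360, and 0.54 for srsf5a over SRSF5.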

How the results depend on the processing

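The count of 0 members past the threshold, by genotype and by clutch, held under all 13 alternatives. Of the 40 tested members, 28 kept the sign of their genotype log2 fold change under all of them, SRSF9 and srsf3a included. For members whose genotype groups do not overlap, these 2 among them, leaving out 1 library cannot change the sign. A pseudocount cannot change it for them either. Those alternatives were therefore no check of the sign for such members. The filters, the trend, robust moderation and the clutch block leave the log2 fold change of a tested member as it is, so they checked no sign. For SRSF9 and srsf3a only median-of-ratios scaling and quantile normalization could have changed the sign. The count of genes past the threshold by genotype, 2, was 0 at a pseudocount of 0.1, without a filter, without the trend and with the replicate block (the clutch), and 0 with any 1 library left out. By clutch it was 3, then 1 at a pseudocount of 0.1, without a filter and without the trend, and 0 to 15 with 1 library left out. With the replicate block no member passed the adjusted threshold either, and 10 members had an unadjusted p under 0.05 by genotype, against 6 without it. The share of all genes at that unadjusted p was not counted with the block, so nothing is read from the 10. The SR median by genotype, 0.92, was 0.93 and 0.61 at pseudocounts of 0.1 and 5, 0.69 after median-of-ratios scaling, 0.71 after quantile normalization and 0.47 to 0.66 with 1 library left out. The SR median by clutch, -0.02, was 0.11 at a pseudocount of 0.1 and -0.34 to 0.24 with 1 library left out, and the hnRNP median by clutch was -0.46 to 0.056 with 1 library left out. The cause of these shifts was not tested. The 10 of 12 pairs with a fixed order were 10 to 11 under every alternative run. Pseudocounts and scalings keep the order of rows within a library, and filters only change which rows are kept. Leaving out a library cannot undo a fixed order either, so these alternatives were no check of it. Depth is unknown from FPKM, so the counting error of low rows such as hnrnph3 cannot be given.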
